A study of Caenorhabditis elegans with 4 samples.

Results

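The regions described here are the DVE-1 binding peaks on chromosome V of Caenorhabditis elegans. They were chosen by chromosome alone: every peak of the list deposited for the whole series whose sequence name is V, which is 915 of 4971 peaks. The same chromosome carried 311 of 1709 peaks in the list of ChIP replicate 1 and 392 of 2109 peaks in that of ChIP replicate 2. The list for the whole series is called the combined list below. Coordinates are in bp on WormBase build WS180, 1-based as deposited.

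The study mapped DVE-1 in late embryos by chromatin immunoprecipitation and sequencing (ChIP-seq), with 2 ChIP samples and 2 input samples of the same strain, OP398. These hermaphrodites carry the allele unc-119(ed3) on III and the transgene wgIs398, which holds unc-119(+) and dve-1 with a C-terminal tag of TY1, EGFP and FLAG. Worms were grown at 20 °C and fixed with 2% formaldehyde, and anti-GFP antibodies were used for the ChIP samples, whereas the input samples are chromatin of the same lysates set aside before that step. All samples share genotype, stage and temperature, the transgene was introduced by bombardment, and the labels name no mutation of the worm's own dve-1 gene. Whole embryos were used, so the peaks do not tell which cells carried the protein at a site. The labels do not say whether the replicates are separate cultures, and differences between them may thus be technical only.

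DVE-1 belongs to the SATB class of homeodomain proteins, which bind DNA and are linked to chromatin organisation. In C. elegans it is best known for the mitochondrial unfolded protein response, in which it accumulates in the nucleus and acts with ATFS-1 and UBL-5 on genes of mitochondrial chaperones such as hsp-6 and hsp-60. Chromosome V is the longest of the worm's chromosomes and carries hsp-6 and atfs-1 as well as many of the worm's chemoreceptor genes. Worm autosomes have a central domain with little meiotic recombination, many conserved genes and few repeats, and 2 arms with more recombination, more repeats and more members of young gene families. Without a genome or annotation of build WS180, genes and gene parts at the peaks are not given here, and whether any peak lies at hsp-6 or atfs-1 was not examined.

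For each peak the deposited lists hold only its 2 edges and the q-value of the peak caller, PeakSeq. They hold no read counts, so the sequencing depth is unknown. The q-values are the authors' and serve here only to rank peaks within a list, rank 1 being the smallest q-value. Lists of different length give ranks that are not comparable as a change. A peak was called found in a replicate when it overlapped a peak of that replicate by at least 1 bp. The span of V was taken as the largest peak end in the 3 lists, 20919564 bp. By peak midpoint, V was divided into a left domain (1 to 5897000), a centre domain (5897001 to 16550000) and a right domain (16550001 to the end).

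The domains differed little in the number of peaks for their length, and the right domain had the fewest. In the combined list the left domain held 259 peaks, the centre 499 and the right 157. This is 43.9 peaks per Mb on the left, 46.8 in the centre and 35.9 on the right. The right domain thus had 17.2% of the V peaks (95% Clopper-Pearson interval 14.8 to 19.8) on 20.9% of the span, a ratio of 0.821 (exact binomial test, 2-sided, adjusted p = 0.0150 over 3 domains). The centre had 54.5% of the peaks (51.2 to 57.8) on 50.9% of the span, a ratio of 1.07 (exact binomial test, adjusted p = 0.0437). The left domain had 28.3% of the peaks on 28.2% of the span (ratio 1.004, exact binomial test, adjusted p = 0.941). Peaks of either replicate alone were closer to an even spread. The right domain had 62 peaks in replicate 1 (ratio 0.954) and 74 in replicate 2 (ratio 0.904), and the centre had 162 (1.02) and 205 (1.03). No domain passed the test in either replicate list (exact binomial test, adjusted p = 1 for all 3 domains in replicate 1 and 0.779 for all 3 in replicate 2).

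The lowest counts lay in one part of the right domain. The stretch from 17 to 18 Mb held 17 peaks in the combined list, 6 in replicate 1 and 8 in replicate 2, the fewest of the 21 bins of 1 Mb in all 3 lists. The other 20 bins held between 28 and 59 combined peaks. That stretch was singled out after its count was seen. Without it the right domain had 140 of 898 peaks and a ratio of 0.922 (exact binomial test, adjusted p = 0.459). The ratio of the centre was then 1.04 (exact binomial test, adjusted p = 0.459). Leaving out the emptiest bin of the right domain was bound to raise the right ratio and lower the centre ratio. These values therefore show only how far the calls rest on that bin. The tests treat peaks as independent, which neighbouring peaks are not. With peaks separated by at most 5000 bp counted once, the ratio of the right domain was 0.854 (exact binomial test, adjusted p = 0.200) and that of the centre 1.05 (adjusted p = 0.318), so neither call held.

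**Figure D1:**
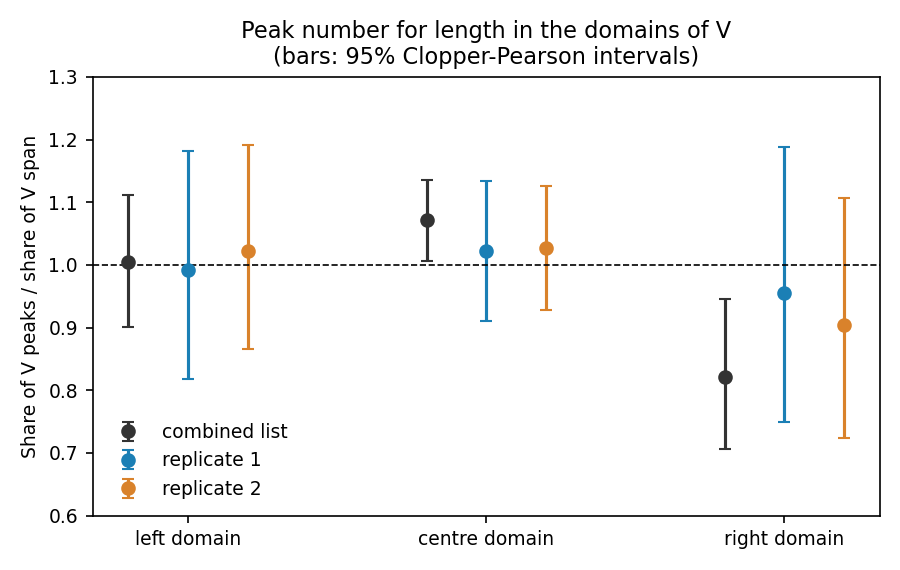
Share of V peaks in each domain divided by the domain's share of the span of V (y axis), for the combined list and both replicate lists; bars are 95% Clopper-Pearson intervals and the dashed line marks an even spread. Only in the combined list do the intervals of the centre (ratio 1.07) and of the right domain (0.821) leave the line; both replicate lists keep the line within their intervals in all 3 domains.

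Covered length differed less between domains than peak number. Combined peaks covered 1.65% of the left domain, 1.77% of the centre and 1.54% of the right domain. In replicate 1 the covered share was 0.557% on the left, 0.522% in the centre and 0.549% on the right. In replicate 2 it was 0.834%, 0.783% and 0.872% in the same order, so the right domain was the lowest only in the combined list.

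The combined peaks nearest to the domain boundaries were not among the wide or well-ranked ones. The nearest combined peaks at the left boundary lay at V 5853436–5853452 (17 bp wide, rank 4550, in neither replicate) and V 5917718–5917964 (247 bp, rank 3179, in replicate 1 only), with midpoints 43.6 kb and 20.8 kb from it. At the right boundary they lay at V 16539203–16539368 (166 bp, rank 4156) and V 16553005–16553217 (213 bp, rank 2695), with midpoints 10.7 kb and 3.11 kb from it, and neither was found in a replicate. All 4 were narrower than the median V peak of 313 bp and ranked lower than the median V rank of 2615, the one at rank 2695 only slightly. Many V peaks are as narrow and as low in rank, so this is not a trait of the boundaries.

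Along the chromosome the replicates placed their peaks in similar amounts. Counts per bin of 1 Mb in replicate 1 and replicate 2 had a Pearson r of 0.772 and a Spearman rho of 0.607 over 21 bins, given as a description because bins of one chromosome share their libraries. The bin from 1 to 2 Mb stood out in both replicates. It held 34 peaks of replicate 1 and 38 of replicate 2, the most of any bin in each list, whereas the next highest bin, from 19 to 20 Mb, held 25 and 27. In the combined list the bin from 1 to 2 Mb held 58 peaks, equal to the bin from 6 to 7 Mb and 1 fewer than the bin from 13 to 14 Mb. Of those 58 peaks, 28 (48.3%) were found in both replicates, beside 25.4% of the peaks of all chromosomes and against 16 of 58 (27.6%) from 6 to 7 Mb and 13 of 59 (22.0%) from 13 to 14 Mb. A high count in the combined list therefore did not go with equal support by the replicates.

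**Figure D2:**
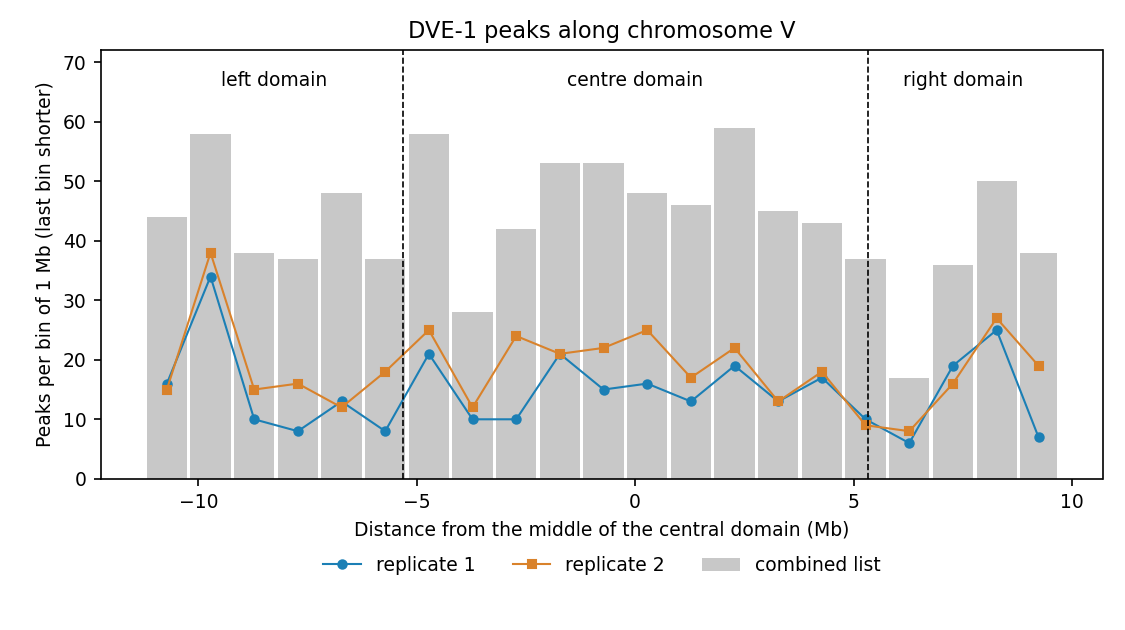
Number of peaks per bin of 1 Mb (y axis) against distance from the middle of the centre domain in Mb (x axis); grey bars are the combined list, circles replicate 1 and squares replicate 2, and dashed lines mark the domain boundaries. The second bin from the left end has the most peaks in both replicates (34 and 38), and the lowest bar, with 17 combined peaks, lies in the right domain.

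The best-ranked sites of V lay in all 3 domains. The best was V 1848529–1849015, in the left domain, a peak of 487 bp with a q-value of 2.45e-63. It ranked 19 in the combined list, 16 in replicate 1 and 13 in replicate 2. The second was V 19742401–19743011, in the right domain, 611 bp wide with a q-value of 1.19e-59, which ranked 26 in the combined list, 36 in replicate 1 and 12 in replicate 2. The third was V 11313907–11314496, in the centre, 590 bp wide with a q-value of 2.71e-59, and ranked 27, 29 and 47 in the combined list, replicate 1 and replicate 2. These 3 sites were single peaks in every list, wider than the median V peak, and their edges differed between lists by at most 81, 42 and 51 bp.

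The next sites of the right and centre domains were broader, and the replicates drew some of them differently. The peak at V 18565541–18566722, on the right, was 1182 bp wide and ranked 37. Replicate 2 listed it as 1 peak of 1111 bp at rank 37, and replicate 1 as 2 peaks of 560 and 293 bp at ranks 113 and 578. In the centre, V 9342976–9344619 was 1644 bp wide and ranked 38. Replicate 2 had 1 peak of 1528 bp there (rank 48), but replicate 1 had only a peak of 612 bp over its right part, at 9344017–9344628 (rank 145). The centre also held V 9730746–9731696 (951 bp, rank 44, ranks 49 and 39 in replicates 1 and 2) and V 12303364–12304152 (789 bp, rank 46, ranks 17 and 35), each drawn as 1 peak of similar extent in both replicates.

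The remaining sites among the 10 best lay on the left. The peak at V 5049268–5049979 was 712 bp wide and ranked 52, with ranks 89 and 29 in replicates 1 and 2. The peak at V 3773343–3775945 was 2603 bp wide and ranked 62, with ranks 44 and 49. The widest V peak of the combined list, V 723851–727727, had 3877 bp and rank 54. In replicate 2 most of it was 1 peak of 3697 bp at rank 26, followed by a second of 727 bp at rank 1055. In replicate 1 it was 2 peaks, of 398 bp at rank 166 and of 1633 bp at rank 979, which together cover a smaller part of it. The third site of the right domain was V 19642914–19643389, with 476 bp, rank 83 and ranks 62 and 80 in replicates 1 and 2.

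All 10 of the best V peaks, and 97 of the 100 best, were found in both replicates. When midpoints within 200 bp were asked for in place of an overlap, 6 of the 10 were found in both. High support at these ranks was not particular to V. By overlap, peaks of all chromosomes were found in both for 100% of ranks 1 to 100 and 99.3% of ranks 101 to 250. At ranks 251 to 500 the share was 94.8% over all chromosomes and 100% on V, and at ranks 501 to 1000 it was 80.4% and 83.5%. Of the 25 best V peaks of replicate 1, 20 overlapped one of the 25 best V peaks of replicate 2, and of the 100 best, 67 did. Over 213 sites with 1 peak in each list, the q-value ranks of the 2 replicates had a Spearman rho of 0.631, given as a description across peaks of the same libraries. The midpoints of these pairs lay a median of 34 bp apart, with an upper quartile of 68.5 bp.

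Among the highest ranks, V had a smaller share than among the rest in all 3 lists. V held 68 of the 500 best combined peaks, which is 13.6% (95% interval 10.7 to 16.9), against 18.9% of the peaks ranked lower. In replicate 1 the shares were 15.4% of the 500 best and 19.4% of the rest, and in replicate 2 they were 15.6% and 19.5%. The span of V was 20.9% of the total span. The right domain ran against this order: it gave 22 of those 68 combined peaks (32.4%, interval 21.5 to 44.8), against 15.9% of the V peaks ranked lower. It gave 26 of 78 V peaks among the 500 best of replicate 2, or 33.3% against 15.3% of the rest. In replicate 1 it gave 18 of 77, or 23.4% against 18.8% of the rest, a smaller gap that lies within the interval of 14.5 to 34.4. Per Mb, the right domain had 5.03 of the 500 best combined peaks, the left 2.88 and the centre 2.72. In replicate 1 the values were 4.12 on the right, 3.39 on the left and 3.66 in the centre, and in replicate 2 they were 5.95, 3.05 and 3.19 in the same order. The right domain thus had the fewest peaks for its length in each list, and the most among the 500 best for its length in each list. These shares were compared after the values were seen and carry no test.

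Support by the replicates was close to that of the whole series. Of the 915 V peaks, 222 (24.3%, 95% interval 21.5 to 27.2) were found in both replicates, beside 25.4% over all chromosomes. Another 69 (7.54%) were found in replicate 1 only, beside 7.54% over all chromosomes, and 160 (17.5%) in replicate 2 only, beside 15.6%. The remaining 464 (50.7%, 47.4 to 54.0) were in neither, beside 51.5%. The share in both ranged from 19.8% on X to 30.5% on II among the other chromosomes, and V lay inside this range. Within V it was 23.6% on the left (61 of 259; 18.5 to 29.2), 23.2% in the centre (116 of 499; 19.6 to 27.2) and 28.7% on the right (45 of 157; 21.7 to 36.4). These intervals overlap, and they cover counting error only.

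Read between the replicates themselves, 227 of the 311 replicate 1 peaks on V (73.0%, interval 67.7 to 77.8) overlapped a replicate 2 peak, beside 75.3% over all chromosomes. In the other direction 223 of 392 replicate 2 peaks (56.9%, 51.8 to 61.8) overlapped a replicate 1 peak, beside 60.6%. Both shares were highest in the right domain, at 77.4% of 62 peaks and 60.8% of 74, but the intervals of the domains overlapped. Over all chromosomes, 47 of 1709 peaks of replicate 1 and 52 of 2109 of replicate 2 had no counterpart in the combined list. On V this held for 14 of 311 (4.50%) and 11 of 392 (2.81%), and no such V peak was found in the other replicate. The best-ranked of these were V 4967258–4967840 (rank 799 in replicate 1), V 12747577–12747785 (rank 1153) and V 4918631–4919130 (rank 1164), and in replicate 2 V 19119077–19119464 (rank 1406), V 5850486–5850710 (rank 1586) and V 7809880–7810200 (rank 1593). The best of them thus ranked 799 of 1709.

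Support dropped steeply with rank. The combined list is that of the whole series, which includes both ChIP samples, so rank and support are not independent measures. A similar drop was seen over all chromosomes. Between combined ranks 1001 and 2000, 35.8% of the V peaks were in both replicates, beside 31.5% over all chromosomes. Between 2001 and 3000 the shares were 6.91% and 5.2%. Among the V peaks at V ranks 1 to 229, 183 of 229 (79.9%) were found in both replicates and 6 (2.62%) in neither. Among V ranks 230 to 458, 38 of 229 (16.6%) were in both and 80 (34.9%) in neither. Among V ranks 459 to 687, 1 of 229 was in both. Among V ranks 688 to 915, 0 of 228 were (Clopper-Pearson upper limit 1.60%), and 91.2% were in neither. The lowest-ranked V peak found in both was V 9318072–9318294, 223 bp wide at rank 3357. Peaks found in only one replicate were mostly those of replicate 2, which has the longer list: 36 against 4 of replicate 1 in V ranks 1 to 229 and 78 against 33 in V ranks 230 to 458. In V ranks 688 to 915 there were 10 of each.

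**Figure D3:**
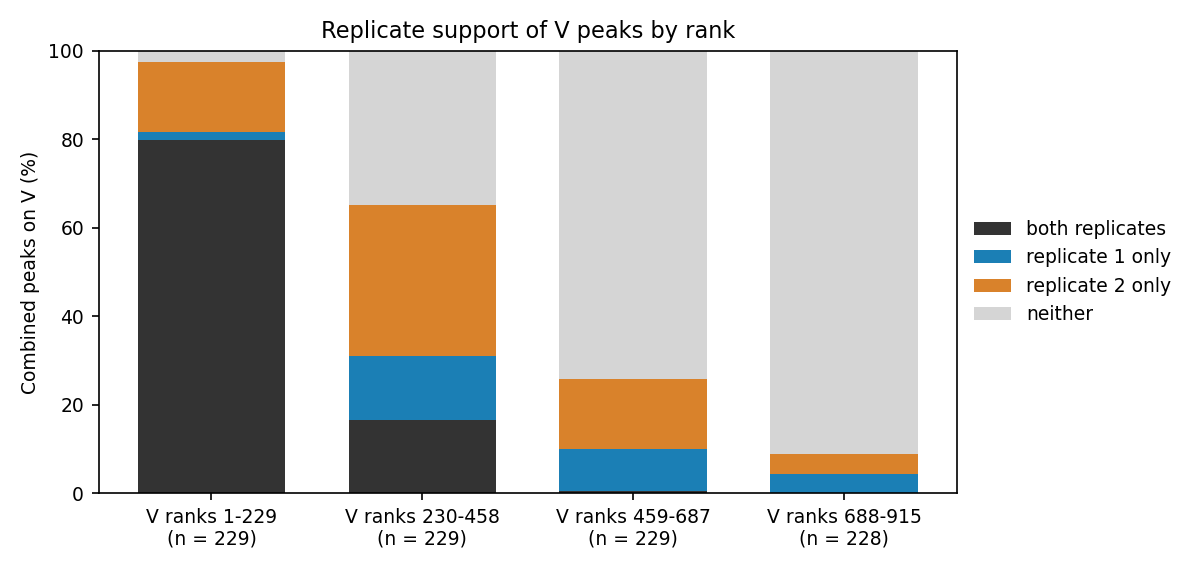
Percent of combined V peaks (y axis) found in both replicates, in replicate 1 only, in replicate 2 only or in neither, for 4 classes of V rank by q-value (x axis, best on the left). Peaks in both make up 79.9% of V ranks 1 to 229 and 16.6% of V ranks 230 to 458, and peaks in neither make up 91.2% of V ranks 688 to 915. Rank and support come from the same ChIP samples and are not independent.

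The best-ranked V peaks that were not in both replicates were V 5504981–5505392 (rank 506), V 8661190–8662819 (rank 627) and V 18587936–18588561 (rank 644). Each was found in replicate 2 only, at ranks 583, 552 and 786. The best-ranked peaks in neither were V 4133253–4134028 (776 bp, rank 1027), V 2133565–2134645 (1081 bp, rank 1126) and V 9074248–9074771 (524 bp, rank 1227). All 6 were wider than the median V peak.

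V peaks were short and about as wide as those of the other autosomes. Their median width was 313 bp (quartiles 223.5 and 459), within the range of medians from 284.5 bp on III to 328 bp on I among the other autosomes and below 401 bp on X. It was 305 bp on the left, 316 bp in the centre and 311 bp on the right. In replicate 1 the median on V was 303 bp and in replicate 2 it was 344.5 bp. Width followed support. V peaks found in both replicates had a median of 453 bp, those in replicate 2 only 352 bp, those in replicate 1 only 288 bp and those in neither 255.5 bp. Among peaks in both, the median was 450 bp on the left, 424.5 bp in the centre and 556 bp on the right, and among those in neither it was 262, 259.5 and 236 bp. Width also fell with rank, as support did. The median was 486 bp at V ranks 1 to 229 and 335 bp at V ranks 230 to 458. It was 267 bp at V ranks 459 to 687 and 204.5 bp at V ranks 688 to 915. Ties in q-value were ranked with the wider peak first, which can add to this fall by construction. A wider peak also meets the overlap rule of 1 bp more easily. Whether width and support go together among peaks of like rank was not tested.

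**Figure D4:**
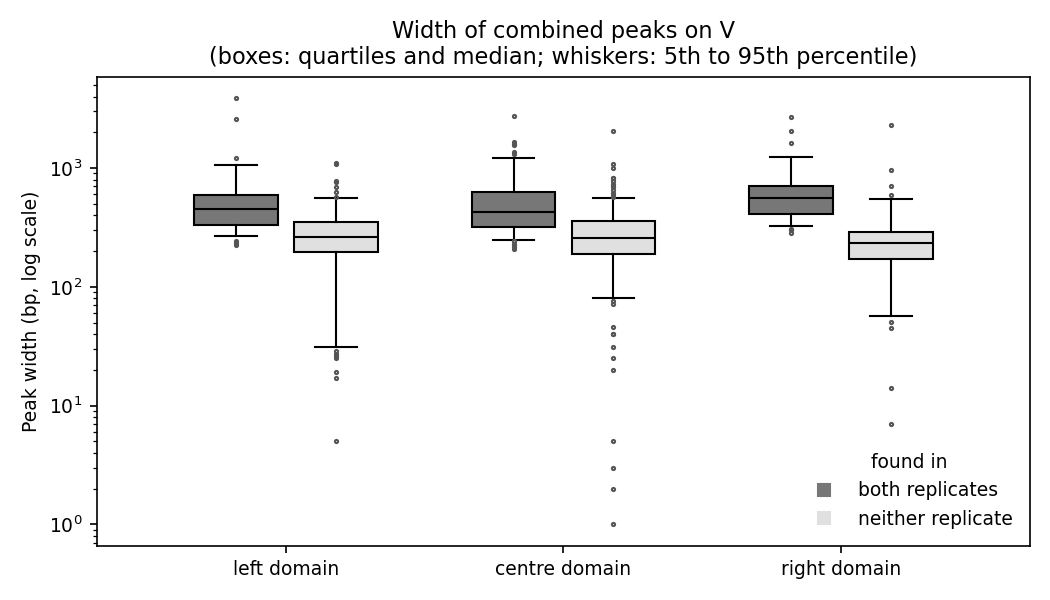
Width in bp on a log scale (y axis) of combined V peaks found in both replicates or in neither, by domain (x axis); boxes show quartiles and median, whiskers the 5th to 95th percentile and dots the peaks beyond. In each domain the peaks in both are wider, with medians of 450, 424.5 and 556 bp from left to right, against 262, 259.5 and 236 bp for those in neither. Rank was not matched between these groups.

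A width of 800 bp or more was reached by 52 V peaks (5.68%, beside 6.34% over all chromosomes), and 33 of these were found in both replicates. After the peak of 3877 bp, the widest were V 6098606–6101324 (2719 bp, rank 197), V 19049086–19051786 (2701 bp, rank 92), V 3773343–3775945 (2603 bp) and V 18704987–18707308 (2322 bp). The last of these differs from the others: it ranked 3781 and was found in neither replicate. The peak of 2719 bp was covered only in part by the replicates. Replicate 1 had 2 peaks there, of 681 and 577 bp (ranks 252 and 928), and replicate 2 had 1 of 579 bp (rank 668). The peak of 2701 bp was 1 peak of 2691 bp at rank 55 in replicate 2 and was divided into 2 peaks in replicate 1, the better of which had 322 bp and rank 519. At the other end, 22 of the 915 V peaks were under 50 bp wide, beside 109 of 4971 over all chromosomes. All 22 on V were in neither replicate, and the narrowest, V 9460719, was 1 bp wide at rank 4890. For neither width class was support counted over all chromosomes.

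Dense groups of peaks occurred in every domain. Among 210 windows of 100 kb, the median window held 4 combined peaks and 9 windows held 10 or more. The densest was V 13000001–13100000, in the centre, with 15 combined peaks. Replicate 1 had 5 peaks there and replicate 2 had 4. Only 3 of its 15 peaks were found in both replicates, and its best peak, V 13085883–13086573, ranked 613. The next was V 6200001–6300000, also in the centre, with 13 combined peaks, where replicate 1 had 5 and replicate 2 had 6. V 20700001–20800000, near the right end, held 12 combined peaks, of which 2 were in both replicates. Replicate 1 listed 2 peaks in it and replicate 2 listed 6.

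Support differed between dense windows within the left domain. V 1100001–1200000 held 11 combined peaks. It also held 8 peaks in replicate 1 and 10 in replicate 2, the most of any window in each replicate list. Of its 11 peaks, 8 were found in both replicates, among them V 1151230–1151956 at rank 84, V 1142236–1142685 at rank 227 and V 1165013–1165589 at rank 309. V 1400001–1500000 also held 11 combined peaks, with 6 of replicate 1 and 8 of replicate 2, and 5 of the 11 were in both. These windows lie in the bin from 1 to 2 Mb described above. In V 3700001–3800000, by contrast, 2 of 10 combined peaks were found in both replicates. In the right domain, V 18500001–18600000 and V 19500001–19600000 had 10 combined peaks each, of which 4 were in both.

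The largest run of near peaks lay in the window V 6200001–6300000. There 8 combined peaks lay between 6220798 and 6230997, a run of 10.2 kb in which no gap exceeded 1000 bp. No other such run on V had more than 4 peaks. Its best members were V 6227219–6228181 (963 bp, rank 64), V 6224008–6225377 (1370 bp, rank 129) and V 6228431–6230012 (1582 bp, rank 201), and these 3 were found in both replicates. The other 5 ranked between 2126 and 4047, with 1 in replicate 1 only, 1 in replicate 2 only and 3 in neither. Each replicate listed 4 peaks in the run. The next run, V 10715696–10720523, had 4 peaks in 4.83 kb, and its outer members, at ranks 670 and 1340, were in both replicates. In all, 167 of the 915 V peaks (18.3%) had a neighbour at most 1000 bp away and 483 (52.8%) at most 5000 bp away.

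A run of combined peaks near the right end held peaks of one replicate only. Between V 20739754 and 20757491, 7 combined peaks followed each other with gaps of at most 5000 bp. Replicate 2 had 4 peaks there and replicate 1 had none. The best-ranked was V 20744462–20745013, at rank 1377.

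The outermost peaks differed between the lists. The first combined peak was V 220–345 (126 bp, rank 2953), in neither replicate, and the second was V 8101–9310 (1210 bp, rank 203), in both. The last was V 20919374–20919564 (191 bp, rank 1680), in replicate 2 only; its end is the largest in the 3 lists and so sets the span used here, since no chromosome length was used. Replicate 1 had its last peak at V 20773631–20774061.

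Long stretches without peaks were more numerous on V than on any other autosome. The median distance between neighbouring combined peaks was 10.7 kb (quartiles 2.89 and 29.3 kb). V had 29 gaps of over 100 kb, against 2 on III, 9 on I, 13 on II, 16 on IV and 39 on X. Of the 210 windows of 100 kb, 16 (7.62%) held no combined peak, and none of these held a peak of either replicate. On the other autosomes between 0 and 2.86% of windows were empty, and on X 11.2% were. V is the longest chromosome and had fewer peaks per Mb (43.7) than the other autosomes (46.0 to 75.0), and whether its gaps are more numerous than its length and density give was not tested.

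The longest stretch without a peak in any of the 3 lists was V 16965968–17326094, with 360 kb. It was bounded by the same sites in all lists: on its left V 16965619–16965967 (rank 907, ranks 371 and 712 in replicates 1 and 2) and on its right V 17326095–17326400 (rank 2077, ranks 1692 and 1724). A further empty stretch of 188 kb, V 17326405–17514129, followed directly after this right-hand site. Between 16965968 and 17514129, then, 1 site stood alone in all 3 lists. The other longest empty stretches were V 2290174–2565454 (275 kb) and V 2899678–3094318 (195 kb) on the left and V 19232806–19445390 (213 kb) on the right, each of them free of peaks in all 3 lists. The longest in the centre was V 7237415–7413106 (176 kb). Stretches of over 100 kb empty in all lists made up 31.5% of the right domain, 21.5% of the left and 14.7% of the centre.

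The replicate lists, with fewer peaks, had longer gaps, and the longest was the same in both. It was V 7237402–7727759 in replicate 1 (490 kb) and V 7237351–7727459 in replicate 2 (490 kb), in the centre domain. The combined list had 7 peaks wholly inside it, the best of them at rank 1783. The second-longest was shared as well, at V 17326356–17717353 in replicate 1 and V 17326405–17717357 in replicate 2 (391 kb in each), with 3 combined peaks wholly inside it, of which the best ranked 1868.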

How the data were processed

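The chromosome V peaks of 3 deposited lists were analysed, those of ChIP replicates 1 and 2 and of the series as a whole; the 2 input samples have no values of their own here. The authors called peaks with PeakSeq on WormBase build WS180, per the file headers and the source column of the deposited lists, and gave each a q-value. The sources used here do not give the aligner, the threshold, the part played by the input or the making of the combined list. The largest deposited q-value on V was 0.000305, 0.000205 and 0.000162 in the combined list, replicate 1 and replicate 2. The depth per sample is unknown, so no precision from counts can be given.

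The members, the domain boundaries and the measures were chosen with earlier results of these data known. Ties in q-value went to the wider peak. Named were the 10 best-ranked V peaks, the 3 best of each domain, the 5 widest, the 5 densest windows of 100 kb, the 5 longest empty stretches and the longest of each domain, the peaks beside each boundary, and the best-ranked peaks missing from a list; other sites were chosen after their values were seen, namely the largest runs, the end peaks and the bins of 1 Mb. Domain counts were tested against domain length with 2-sided exact binomial tests and Benjamini-Hochberg adjustment over 3 domains, at a threshold of 0.05; all other values are descriptions. The domain test was tested on simulated data for the comparison of the domains: in 200 draws of 915 evenly placed peaks, it called at least 1 domain in 4.5%, and a right domain planted at a ratio of 0.747 was recovered with a median of 0.743. Simulated peaks were not clustered. Overlap counts were checked against bedtools 2.31.1. Python 3.11.15, numpy 2.4.6, scipy 1.17.1 and matplotlib 3.10.9 were used.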

Additional observations from a re-analysis of the deposited data

How the results depend on the processing

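"Without replicate 1" stands for replicate 2's list used alone, and "without replicate 2" for that of replicate 1. Leaving out peaks under 50 bp or the stretch from 17 to 18 Mb was chosen after seeing the data. Leaving out that stretch was bound to raise the right ratio and lower the centre ratio. The ratio of the right domain stayed below 1 and that of the centre above 1 under every alternative run, but the calls held under some of them only. For the right domain the call was lost at 0.904 and 0.954 without replicates 1 and 2, 0.970 with peaks in both replicates, 0.861 with the better-ranked 50%, 0.854 when peaks at most 5000 bp apart were merged and 0.922 without 17 to 18 Mb; it held at 0.820 when peaks at most 1000 bp apart were merged and with boundaries moved by 500 kb (0.817 and 0.833). For the centre it was lost at 1.03 and 1.02 without replicates 1 and 2, 1.03 with peaks in both, 1.06 with the better-ranked 50%, 1.052 and 1.050 when peaks at most 1000 or 5000 bp apart were merged, 1.04 with boundaries 500 kb to the right and 1.04 without 17 to 18 Mb. The centre call held at 1.09 with boundaries 500 kb to the left. Without peaks under 50 bp both calls held, at 1.08 in the centre and 0.826 on the right. Most of the alternatives that lost a call count fewer peaks by construction, but moved boundaries keep all 915. Wherever a call was lost, the ratio also lay closer to 1 than in the main result. Why the calls were lost was not tested. The left ratio of 1.004 turned to 0.992 without replicate 2 (1.02 without replicate 1), 0.975 with peaks in both, 0.996 with boundaries 500 kb to the left, 0.993 without peaks under 50 bp and 0.974 without 17 to 18 Mb, and was never called.

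With a 50% reciprocal overlap, which is stricter by construction, V peaks in both moved to 20.4%, replicate 1 peaks found in replicate 2 to 60.8% and the converse to 48.2%; with midpoints within 200 bp the replicate shares were 64.6% and 51.3%, and 6 of the 10 best peaks were in both (7 with the reciprocal overlap). Median widths were 344.5 and 303 bp on V without replicates 1 and 2 (321 and 298 on the left, 341 and 296.5 in the centre, 388.5 and 324.5 on the right) and 453, 450, 424.5 and 556 bp with peaks in both. Gaps of over 100 kb numbered 65 and 75 without replicates 1 and 2, against 29 in the combined list. Both replicate lists hold fewer peaks, and whether this accounts for the gap counts was not tested. Of 85 alternative values, 50 kept direction and call or stayed within their interval. No paired analysis was possible because the inputs, whose replicate numbers match the ChIP samples, have no values of their own here. Genes and sequences at the peaks were not examined, as no genome of this build was used.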
